A study of Mus musculus with 16 samples.

Results

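Lipid handling was followed through 8 genes in single cells of the mouse kidney: Cd36 for fatty acid uptake, Srebf1, Fasn, Scd1 and Scd2 for fatty acid synthesis and desaturation, Sqle for sterol synthesis, Abca1 for sterol efflux and Plin2 for storage. They were taken by symbol from the 31053 genes of the deposited count matrices. The 16 libraries came from 16 mice of the BTBR strain, either BTBR ob/ob (DN, diabetic nephropathy; obese mice that lack functional leptin) or BTBR +/+ (control), with 2 female and 2 male mice of each genotype at 6 and at 12 weeks of age. Mice of both genotypes carried a reporter transgene switched on by a podocyte-specific Cre driver, and no mouse received a treatment. Kidneys without papilla had been depleted of proximal tubules on a Percoll gradient, so the number of cells of a class describes the preparation and not the kidney.

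Cells take up fatty acids through surface proteins such as CD36, build them with fatty acid synthase (Fasn) and make them monounsaturated with stearoyl-CoA desaturases (Scd1, Scd2), and the transcription factor encoded by Srebf1 drives the genes of this synthesis. Sqle encodes squalene epoxidase, a rate-controlling step of cholesterol synthesis, Abca1 encodes the pump that hands cellular cholesterol to apolipoproteins, and Plin2 encodes a protein that coats lipid droplets in most cell types. The proximal tubule burns mainly fatty acids, and lipid droplets in its cells are a known feature of diabetic kidneys.

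In the GRCm38 (mm10) build with GENCODE M21 genes, Cd36 lies on chr5:17781690-17888801, Srebf1 on chr11:60199089-60222581, Fasn on chr11:120805846-120824547, Scd1 on chr19:44394455-44407879, Abca1 on chr4:53030787-53159895 and Plin2 on chr4:86648386-86670060, all on the minus strand. Sqle (chr15:59315077-59331192) and Scd2 (chr19:44293674-44306864) lie on the plus strand. The promoters of Cd36 and Plin2 are shown because these genes gave the clearest sex and genotype differences. Each run holds the 250 bases before the start annotated by RefSeq (GRCm38.p6), at chr5:17835897-17836146 for Cd36, inside the GENCODE gene, and at chr4:86670060-86670309 for Plin2, written 5′ to 3′ on the minus strand with TGACCT in capitals. TGACCT is the reverse complement of AGGTCA, the half-site bound by many nuclear receptors, PPARs among them.
Cd36: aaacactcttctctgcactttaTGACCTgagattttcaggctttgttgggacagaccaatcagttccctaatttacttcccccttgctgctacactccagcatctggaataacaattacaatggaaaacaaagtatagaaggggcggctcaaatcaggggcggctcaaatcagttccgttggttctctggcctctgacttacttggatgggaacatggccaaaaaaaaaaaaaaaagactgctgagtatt
Plin2: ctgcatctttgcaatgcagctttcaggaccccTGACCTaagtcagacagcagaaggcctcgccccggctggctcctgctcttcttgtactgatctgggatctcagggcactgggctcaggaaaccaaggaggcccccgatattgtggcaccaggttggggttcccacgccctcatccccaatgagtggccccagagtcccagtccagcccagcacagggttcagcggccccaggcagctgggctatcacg
The half-site began 228 bases before the start of Cd36 and 218 bases before that of Plin2. On either strand, AGGTCA occurred in 14.0% of 32851 promoters of this length, and among the 5 members with a promoter entry (7 entries) only these 2 held it. CCAAT occurred in 33.8% of promoters and in those of Fasn, Srebf1, Cd36 and Plin2, and the E-box CACGTG in 6.02% and in that of Abca1. TCACNCCAC, a form of the sterol response element, occurred in 1.05% of promoters and in none of these members. A match describes letters in this window and not a site in use.

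The matrices held 116439 barcodes, of which 84456 cells were kept. Marker genes put 66492 of these into 16 named classes with 565 to 17504 cells each. A class is written with "-like" because its name was rebuilt here from markers, and the sources' term glomeruli cells covers all of them although most kept cells carried tubule markers. Another 1308 cells formed a cluster led by Slc7a12, an amino acid transporter gene, and 16656 cells stayed unnamed. Levels are CPM (counts scaled to a common total) of the UMIs (unique molecular identifiers, the counted RNA molecules) summed over the cells of 1 class in 1 library. The libraries fell into 2 sets by the barcodes they shared, 12 libraries with 83410397 to 125551519 UMIs and 4 with 10510855 to 21728793. The smaller set was replicate 1 of the 4 female groups, so a sex difference is also given within the larger set. In control male 6 weeks replicate 2 the median barcode held 698 UMIs. Where a summed level differs, fewer expressing cells and less RNA per cell were not told apart here.

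Each member had its own distribution over the cell classes. By mean, Cd36 was highest in the Slc7a12 cluster, at 225 ± 174 CPM (SD, n = 15), followed by peritubular and venous endothelial-like cells at 136 ± 93.8 (n = 12), glomerular endothelial-like cells at 111 ± 67.4 (n = 16), proximal tubule (PT)-like cells at 96.6 ± 124 (n = 16) and immune-like cells at 61.0 ± 30.3 (n = 16). The endothelial-like levels did not separate from each other, since the peritubular class exceeded the glomerular one in 5 of 12 libraries. By median these 3 were level, at 109 CPM in the cluster, 112 in peritubular and 109.7 in glomerular endothelial-like cells. The PT-like median of 6.10 was below the immune-like one of 63.4, and PT-like exceeded immune-like cells in 7 of 16 libraries. The male and female levels in PT-like cells are given further on. In type B intercalated (IC-B)-like cells the level was 0.931 ± 1.37 CPM (n = 16).

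The 2 stearoyl-CoA desaturase genes had different leading classes. Scd2 peaked in principal cell (PC)-like cells at 559 ± 102 CPM, followed by connecting tubule (CNT)-like cells at 425 ± 59.6 (n = 16 each) and podocyte-like cells at 354 ± 112 (n = 15), and was lowest in PT-like cells at 7.83 ± 7.36 (n = 16). PC-like exceeded CNT-like cells in 15 of 16 libraries. Scd1 peaked in the Slc7a12 cluster at 237 ± 230 CPM (n = 15), followed by arterial endothelial-like cells at 42.9 ± 10.8 (n = 14) and glomerular endothelial-like cells at 20.2 ± 8.94 (n = 16), and stayed at 0.213 ± 0.369 in type A intercalated (IC-A)-like cells (n = 16). The cluster exceeded arterial endothelial-like cells in 10 of 13 libraries, and arterial exceeded glomerular endothelial-like cells in 14 of 14. The levels in the Slc7a12 cluster are a description, since Scd1 was among its leading genes when the cluster was chosen. Markers of the late PT segment summed to 421 to 2593 CPM in this cluster and 179 to 856 in PT-like cells. Those of the early segment summed to 3.76 to 84.8 and 1525 to 2976 CPM. Whether its cells belong to the late PT was not tested.

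Sqle was highest in the Slc7a12 cluster (96.7 ± 58.5 CPM, n = 15) and in cells like the descending limb of the loop of Henle (dLOH-like; 68.4 ± 36.3, n = 16), which could not be ordered, since the cluster was above in 8 of 15 libraries. PT-like cells followed at 28.4 ± 8.88, and mesangial-like cells were lowest at 3.04 ± 2.71 (n = 16 each). Plin2 was highest in immune-like cells (146 ± 94.2 CPM, n = 16) and lowest in the Slc7a12 cluster (5.45 ± 3.43, n = 15), although that cluster carried the highest mean Cd36 and Scd1. Fasn, Srebf1 and Abca1 were flatter, with class means from 2.80 to 15.9, from 8.92 to 22.2 and from 9.56 to 41.1 CPM. Neighbouring classes of Srebf1 overlapped broadly, as PC-like cells exceeded glomerular endothelial-like cells in 8 of 16 libraries.

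**Figure D1:**
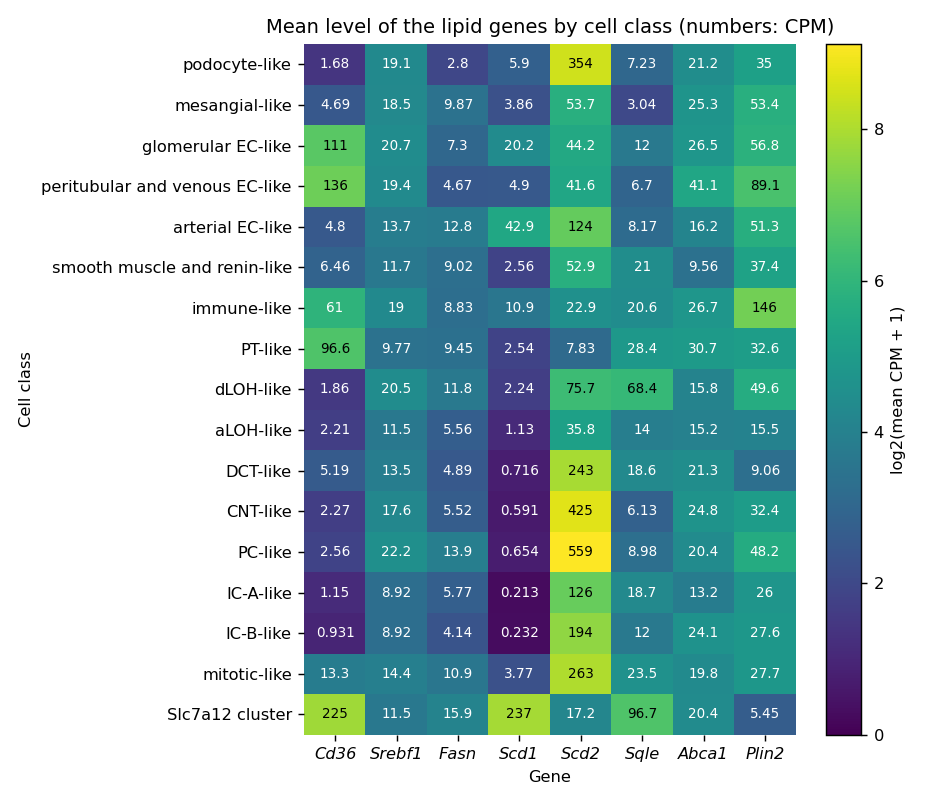
Mean CPM over libraries for the 8 genes (columns) in 16 named classes and the Slc7a12 cluster (rows), with colour on a log2(mean CPM + 1) scale and the mean CPM printed in each cell. Scd2 peaks in PC-like cells at 559 and Plin2 in immune-like cells at 146, while Cd36, Scd1, Fasn and Sqle have their highest mean in the Slc7a12 cluster.

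Over the means of the 16 named classes, on the log2(CPM + 1) scale, the gene whose pattern was most like that of Cd36 was Ttc39c (Pearson r = 0.973), followed by Cyp4b1 (0.95) and Myo7a (0.921). For Plin2 it was Nsd3 (0.942), for Scd1 B4galt1 (0.926), for Scd2 Megf9 (0.906), for Srebf1 Atp6v0a2 (0.858), for Fasn Tob2 (0.845), for Abca1 Trappc5 (0.814) and for Sqle Nmnat3 (0.771). These values describe 16 points that share libraries and depth.

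A test of each member was possible where its counts passed the filter on low values, which held for Plin2 and Scd2 in 16 of 17 classes (the Slc7a12 cluster counted as 1), for Srebf1 and Abca1 in 14, Sqle in 12, Fasn in 11, Cd36 in 9 and Scd1 in 4. Differences are log2 values ± SE from edgeR's quasi-likelihood test on the summed counts, with p-values adjusted (Benjamini-Hochberg) over all genes tested in the class and called under 0.05. Same-numbered libraries of a group pair deviated together, where in females the number also marks the barcode set. Values with this replicate number as a block are given where they change a call.

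The clearest differences were between the sexes, in PT-like cells and the Slc7a12 cluster. Male against female, over both genotypes and ages, 8 of 96 member tests were called (5 higher, 3 lower in males), against 1.23% of all gene tests, and 9 with the block (6 higher, 3 lower), against 3.89%. Within PT-like cells alone 9.7% of the genes tested were called without the block and 18.0% with it, and in the Slc7a12 cluster 2.88% and 6.69%.

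In PT-like cells Cd36 was far higher in males. Control males had 271 and 325 CPM at 6 weeks and 246 and 285 at 12 weeks, while control females had 0.882 and 0.632 at 6 weeks and 1.09 and 0 at 12 weeks, where 0 of 8966879 UMIs allows up to 0.335 CPM. DN males had 7.77 and 129 CPM at 6 weeks and 82.1 and 191 at 12 weeks, and DN females 4.43, 0.621, 1.5 and 0.461. Every male library lay above every female library, and every DN male below every control male. The sex difference was 7.69 ± 0.76 (adjusted p = 1.46e-05), and 8.80 within the larger barcode set (adjusted p = 0.00256). The gene passed the filter on low values through the males. Set against females near 0, the fitted difference is no measure or bound of the fold. The genotype difference in males, -1.71 ± 0.68, was not called (adjusted p = 0.431, or 0.198 with the block) although the groups did not overlap. DN male 6 weeks replicate 1, at 7.77 CPM from 175 UMIs, was the library farthest below its group.

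The PT-like class was made of 4 large clusters, which all sexes and genotypes shared, and small ones, of which 1 held 442 cells of control males and 2 of other mice. Of the cells of this small cluster before doublet removal, 99.4% were from the library control male 6 weeks replicate 2. Cd36 in control males had medians of 420 CPM in the cluster led by Nat8f6 and Cyp4a14 and 306 in the one led by Bhmt and Dpys, against 48.2 in the cluster led by Cox6a2 and Gatm and 68.5 in the one with Slc5a12 and Slc5a2, the markers of the early segment. DN males had 215, 148, 7.23 and 21.8 CPM in the same order, and no female library exceeded 4.89 in any of them. The lower DN male median was thus seen in each cluster, but the male ranges were apart only in the cluster led by Nat8f6. There control males had 397 to 428 CPM and DN males 16.6 to 299. The ranges overlapped in the cluster led by Bhmt (183 to 320 and 11.65 to 241). They also overlapped in that led by Cox6a2 (34.6 to 160 and 0.470 to 44.9) and that with Slc5a12 (27.9 to 75.7 and 0.524 to 61.7).

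In the Slc7a12 cluster Cd36 was also higher in males, but females carried it too. Control males had 321 to 517 CPM and DN males 101 to 413, while control females had 50.1 to 109 (3 libraries) and DN females 59.0 to 107. The difference was 2.02 ± 0.31 (adjusted p = 0.000641). DN male 6 weeks replicate 1, at 101 CPM, lay within the female range.

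The sex call for Cd36 in IC-B-like cells, 4.50 ± 0.80 (adjusted p = 0.0103), rested on levels of 1.30 to 4.77 CPM in control males, 0 to 2.71 in DN males and 0 to 0.436 in females. Females held 2 UMIs of Cd36 (control) and 1 (DN) in this class against 86 and 23 in males, so the gene passed the filter on low values through the males, and the fitted difference, set against a level near 0, is no measure or bound of the fold. It was lost without control female 6 weeks replicate 2 (4.68, adjusted p = 0.119). In control males these levels were 0.529 to 1.47% of the PT-like level of the same library, and the 9 PT markers stood in IC-B-like cells at 0.412 to 1.35% of theirs. The part of RNA from PT cells in this call was not tested.

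Scd1 ran the other way, and higher in females. In PT-like cells control females had 2.64 and 5.69 CPM at 6 weeks and 9.83 and 12.6 at 12 weeks, DN females 3.17, 2.69, 1.0 and 0.691, and the 8 male libraries 0.101 to 0.621. These are small counts, with 179 UMIs in all control females and 14 in all control males. Still, each female library exceeded each male one, with a male against female difference of -3.48 ± 0.48 (adjusted p = 0.000347). The gene passed the filter on low values through the females. Set against males near 0, this value is no measure or bound of the fold. In the Slc7a12 cluster control females had 374 to 790 CPM, DN females 152 to 527, DN males 42.1 to 316 and control males 21.3 to 91.2, and the difference was -2.30 ± 0.39 (adjusted p = 0.0026). There DN males overlapped the females. Slc7a12 itself was at 714 to 1299 CPM in control females of this cluster and 0 to 17.0 in control males, and the 9 PT markers summed to 981 to 6580. Whether its cells are of the same kind in both sexes was not tested.

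Sqle was higher in males in both, by 0.51 ± 0.11 in PT-like cells (adjusted p = 0.0103) and by 1.47 ± 0.23 in the Slc7a12 cluster (adjusted p = 0.000827), where females had 28.6 to 67.0 CPM and males 71.5 to 212 without overlap. Plin2 was lower in males in PT-like cells, by -0.67 ± 0.15 (adjusted p = 0.012). Scd2 in the Slc7a12 cluster, at 1.41 ± 0.50, was called only with the block (1.79, adjusted p = 0.019, against 0.173). Each sex call named for PT-like cells and the Slc7a12 cluster, other than that of Scd2, was also called within the larger barcode set.

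**Figure D2:**
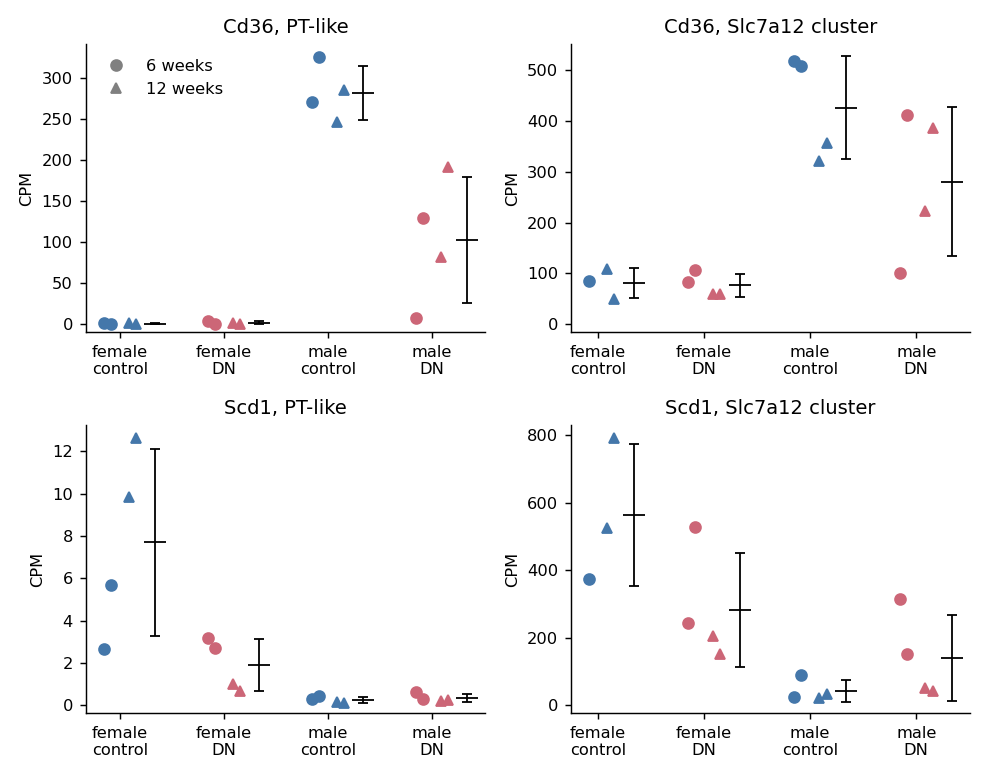
CPM of Cd36 (top) and Scd1 (bottom) in PT-like cells (left) and the Slc7a12 cluster (right), 1 point per library on linear axes, split by sex and genotype, with circles for 6 weeks and triangles for 12 weeks, and mean ± SD (black) for each set of 4 libraries (3 for control females in the cluster). In PT-like cells Cd36 is at 246 to 325 in control males and under 4.5 in all females, and Scd1 reaches 12.6 in control females and 0.621 at most in males.

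Between the genotypes, the storage gene Plin2 in PT-like cells was the only member called by edgeR without the block. At 6 weeks it was the only one of 96 member tests called, without the block (0.101% of all gene tests) and with it (1.28%), and 6 and 18 of the 96 had an unadjusted p under 0.05. In PT-like cells alone 0.378% of genes were called at 6 weeks, or 1.98% with the block. At 12 weeks 0 of 93 member tests were called by edgeR without the block (0.376% of all gene tests; 15 at an unadjusted p under 0.05, and 4 calls by DESeq2). With the block 8 were called, 6 higher and 2 lower in DN (3.18%), and in PT-like cells 2.55% of genes. The percentages are shares of adjusted calls by edgeR. The counts at an unadjusted p under 0.05 and by DESeq2 have no share over all gene tests beside them and are no result about the members.

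At 6 weeks Plin2 in PT-like cells stood at 23.8 and 23.7 CPM in control females, 16.6 and 13.5 in control males, 54.5 and 38.6 in DN females and 36.4 and 41.5 in DN males. At 12 weeks the values were 33.5 and 32.5, 13.8 and 12.6, 46.0 and 64.6, and 32.7 and 37.4 in the same order. DN exceeded control in each of the 8 same-numbered pairs, and within each sex the genotypes did not overlap. DN was also above control in all 8 pairs in mesangial-like and in smooth muscle or renin-like cells, and below it in all 8 in IC-A-like cells. How many genes of these classes are as uniform was not counted. In smooth muscle or renin-like and IC-A-like cells Plin2 was called in no comparison, with or without the block. PC markers summed to 483 to 637 CPM in control and 345 to 417 in DN IC-A-like cells at 12 weeks. Smooth muscle and renin markers summed to 133 to 529 in control and 663 to 1476 in DN mesangial-like cells at 6 weeks. Neither pair of ranges overlapped, and their part was not tested. In PT-like cells Plin2 rose in DN by 1.15 ± 0.22 at 6 weeks (adjusted p = 0.0394, or 0.00294 with the block). At 12 weeks the difference was 1.02 ± 0.22, which passed only with the block (adjusted p = 0.0755 against 0.00354).

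With no doublet removal the 6-week difference was 1.12 and no longer called (adjusted p = 0.0521). With each library left out in turn it stayed between 1.0 and 1.3, but the call was lost for 12 of the 16 libraries (adjusted p up to 0.214) and kept without control female 12 weeks replicate 1 or 2, DN female 6 weeks replicate 2 or DN female 12 weeks replicate 1. The 12-week difference was called without the block when DN female 6 weeks replicate 2 (adjusted p = 0.0414) or control female 12 weeks replicate 1 (adjusted p = 0.044) was left out. Summed markers of immune cells, the class with most Plin2, were at 16.6 to 108 CPM in control and 39.8 to 194 in DN PT-like cells at 6 weeks, and at 23.2 to 115 and 54.3 to 284 at 12 weeks. The ranges overlapped, and their part in the difference was not tested.

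All 4 large PT clusters showed the pattern in males. In the cluster led by Nat8f6 and Cyp4a14, Plin2 was at 5.61 to 7.77 CPM in control males and 19.0 to 23.1 in DN males, in that led by Bhmt and Dpys at 7.77 to 19.7 and 23.3 to 34.1, in that with Slc5a12 and Slc5a2 at 20.1 to 30.6 and 39.2 to 48.1, and in that led by Cox6a2 and Gatm at 25.8 to 38.3 and 51.7 to 80.3. The genotypes did not overlap in any of the 4. In females the medians were also higher in DN in each cluster, with overlapping ranges in all 4. The Slc7a12 cluster, which was not named PT-like although it carried markers of the late PT segment, had 0 to 11.7 CPM of Plin2. There DN was above control in 3 of 3 pairs at 6 weeks and below it in 4 of 4 at 12 weeks.

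Outside the PT, Plin2 differed in distal tubule and mesangial-like cells at 12 weeks, and these calls needed the block. In CNT-like cells control libraries had 23.9, 22.2, 31.6 and 20.6 CPM and DN libraries 47.1, 45.9, 34.6 and 38.9, all above, a difference of 0.69 ± 0.17 (adjusted p = 0.0604, or 0.00256 with the block). Without control male 12 weeks replicate 1 it was 0.89 and called without the block (adjusted p = 0.015). Genes of the dissociation stress response, such as Fos and Jun, summed to 320 to 603 CPM in these control CNT-like cells and 716 to 1362 in DN, and the share of mitochondrial reads also differed, at medians of 23.2 to 27.1% and 9.38 to 25.3%. Over all classes the stress list had 1 higher of 208 tests called at 12 weeks without the block, against 0.376% of all gene tests, and 19 higher and 3 lower with it, against 3.18%. Their part was not tested.

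In mesangial-like cells at 12 weeks Plin2 was at 49.8, 32.1, 61.1 and 41.1 CPM in control and 77.7, 53.4, 84.2 and 49.9 in DN. Each DN library exceeded its same-numbered control, as in all 4 pairs at 6 weeks, although the ranges overlapped (0.58 ± 0.28, adjusted p = 0.437, or 0.0101 with the block). Smooth muscle and renin cell markers summed to 222 to 356 CPM in these control cells and 661 to 933 in DN, and 5 adipocyte markers to 0 to 2.73 and 3.31 to 9.71, both without overlap, and their part was not tested. In PC-like cells the sign was opposite, with 50.3 to 67.2 CPM in control and 34.8 to 44.3 in DN libraries and no overlap (-0.42 ± 0.32, adjusted p = 0.969, or 0.0118 with the block). IC-A markers summed to 214 to 241 CPM in these control cells and 39.9 to 191 in DN, without overlap, and their part was not tested.

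**Figure D3:**
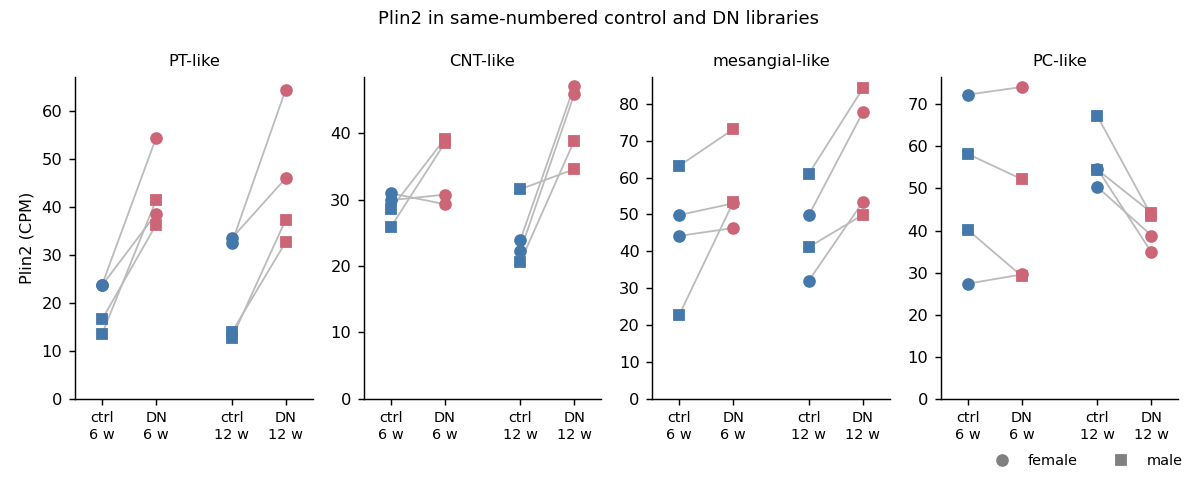
Plin2 CPM in control and DN libraries at 6 and 12 weeks in 4 classes, with lines joining libraries of the same sex, age and replicate number (circles female, squares male, linear axes from 0). In PT-like and mesangial-like cells all 8 lines rise, and at 12 weeks all 4 lines rise in CNT-like cells and fall in PC-like cells.

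Sqle, the sterol synthesis gene, moved in opposite directions in different classes at 12 weeks, again in calls that needed the block. In smooth muscle and renin-like cells control libraries had 14.7, 18.0, 11.6 and 6.15 CPM and DN libraries 31.1, 42.6, 42.2 and 31.7, with no overlap and a difference of 1.72 ± 0.37 (adjusted p = 0.0513, or 0.000786 with the block). In CNT-like cells control had 2.66, 5.23, 3.77 and 2.69 and DN 10.7, 12.0, 7.94 and 6.96, again with no overlap (1.23 ± 0.32, adjusted p = 0.0818, or 0.0182 with the block). Without the block, the former was called when control female 6 weeks replicate 1 or 2, control male 6 weeks replicate 1, DN female 6 weeks replicate 1 or 2 or DN female 12 weeks replicate 1 was left out (adjusted p = 0.026 to 0.0475), and the latter without control male 6 weeks replicate 1 (adjusted p = 0.0303). In PT-like cells the difference was smaller, 0.50 ± 0.16 (adjusted p = 0.347, or 0.0383 with the block).

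In IC-B-like cells Sqle was lower in DN. Control libraries had 15.7, 28.1, 22.0 and 20.0 CPM and DN libraries 9.30, 11.0, 12.9 and 9.11, with no overlap and a difference of -1.02 ± 0.21 (adjusted p = 0.146, or 0.00135 with the block). At 6 weeks the same class had 3.84 to 14.0 CPM in control and 5.22 to 11.3 in DN, overlapping, and neither this nor the 6-week values of the other classes shown here were called. Markers of the ascending limb of the loop of Henle (aLOH) summed to 455 to 617 CPM in control and 838 to 1557 in DN IC-B-like cells at 12 weeks, without overlap. In CNT-like cells they summed to 251 to 308 in control and 103 to 157 in DN, also without overlap, beside the stress genes given for Plin2. Their part in the differences of Sqle was not tested. The difference between the ages was not called either, and was nearest to it in smooth muscle and renin-like cells (1.83 ± 0.49, adjusted p = 0.0708 with the block).

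**Figure D4:**
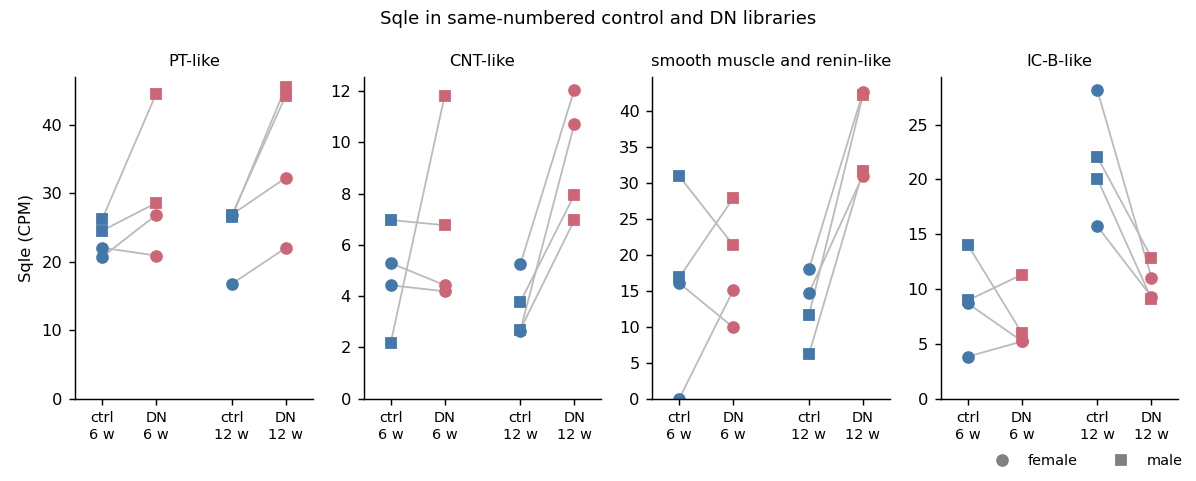
Sqle CPM in control and DN libraries at 6 and 12 weeks in 4 classes, with lines joining libraries of the same sex, age and replicate number (circles female, squares male, linear axes from 0). At 12 weeks all 4 lines rise in PT-like, CNT-like and smooth muscle-like or renin-like cells and fall in IC-B-like cells, from 15.7 to 28.1 in control to 9.11 to 12.9 in DN.

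The other genes of the sterol list, 25 without Sqle, had 8 higher and 9 lower of 313 tests over all classes at 12 weeks with the block, against 3.18% of all gene tests called. In smooth muscle and renin-like cells 4 of 20 tested rose in DN and 0 fell (among them Idi1 1.28, Fdps 1.05 and Msmo1 0.87; list median 0.37, against 0.00 over all genes, of which 4.28% were called). In IC-B-like cells 0 of 24 rose and 5 fell (among them Srebf2 -0.55, Lss -0.97, Msmo1 -0.71 and Acat2 -0.69; list median -0.41, against 0.00 over all genes, of which 2.2% were called). In CNT-like cells Idi1 (0.70) and Hmgcs1 (0.36) rose, where 4.48% of genes were called. The aLOH markers given for Sqle differed in the same IC-B-like and CNT-like cells. Idi1, Fdps, Lss, Msmo1, Hmgcs1 and Acat2 encode enzymes of sterol and isoprenoid metabolism, and Srebf2 the main transcription factor of the pathway. Without the block none of these was called, and over all classes 0 rose and 1 fell of 313 tests (Srebf2 in mesangial-like cells, -0.96 ± 0.23, adjusted p = 0.0263), against 0.376% of all gene tests. The smooth muscle, renin and adipocyte markers given for Plin2 differed in these mesangial-like cells, and their part was not tested.

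Split by sex over both ages, a contrast added after the levels of Cd36 and Scd1 had been seen, 1 of 96 member tests was called in males (0.446% of all gene tests) and 12 with the block, 7 higher and 5 lower in DN (4.23%). In females 0 were called by edgeR (0.066%; 7 at an unadjusted p under 0.05, and 1 call by DESeq2) and 3 with the block, 2 higher and 1 lower (1.49%). Whether a genotype difference itself differed between the sexes was called for 0 of 96 (0.012%; 4 at an unadjusted p under 0.05, and 1 call by DESeq2) and for 1 with the block (0.242%). Here too the counts at an unadjusted p under 0.05 and by DESeq2 have no share over all gene tests beside them.

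Plin2 in PT-like cells rose in DN males by 1.30 ± 0.22 (adjusted p = 0.00787; 1.65% of the genes of this class were called, or 9.54% with the block). Without control male 12 weeks replicate 2 it was 1.20 and no longer called (adjusted p = 0.0781). In females it was 0.85 ± 0.22 and called only with the block (adjusted p = 0.332 against 0.00291). The difference between the sexes, 0.44 ± 0.31, was not called (adjusted p = 1.0, or 0.247 with the block).

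Scd1 in PT-like cells was the member with a call for the sex difference of the genotype effect, from female counts set against males near the detection limit. Control females at 2.64 to 12.6 CPM and DN females at 0.691 to 3.17 differed by -2.25 ± 0.38 (adjusted p = 0.0707, or 0.0038 with the block), while males differed by 0.53 ± 0.45 with 14 UMIs in all control and 30 in all DN libraries. The gene passed the filter on low values through the females, and at these male levels a fall could not have been detected. The difference of the differences was 2.78 ± 0.60 (adjusted p = 0.165, or 0.037 with the block). In the Slc7a12 cluster it was 2.25 ± 0.56 and not called (adjusted p = 0.184, or 0.536 with the block).

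The Scd1 signal of control females came from the clusters led by Nat8f6 and by Bhmt, with 5.85 to 29.5 and 3.51 to 19.3 CPM, against 1.34 to 5.35 and 0 to 2.48 in DN females. In glomerular endothelial-like cells Scd1 was lower in DN males, at 13.6 to 22.8 CPM against 30.0 to 37.9 in control males without overlap (-1.0 ± 0.31, adjusted p = 0.737, or 0.00076 with the block). DN females had 6.57 to 23.4 and control females 11.7 to 19.5 there, and the difference in them was 0.03 ± 0.38.

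In males the block also gave calls for Sqle in PT-like (0.55), CNT-like (1.01), distal convoluted tubule-like (1.15), IC-B-like (-0.70) and smooth muscle or renin-like cells (1.07), for Plin2 in CNT-like (0.47), mesangial-like (0.48) and PC-like cells (-0.31) and for Abca1 in CNT-like cells (-0.55). For Sqle in distal convoluted tubule-like cells the value without the block was 1.09 (adjusted p = 0.941), or 0.78 to 1.31 with each library left out. PT markers stood in these cells at 0.711 to 18.9% of their PT-like level in control and 0.433 to 0.948% in DN males. Their part was not tested. Without the block and with each library left out in turn, Plin2 ranged from 0.24 to 0.98 in mesangial-like and from -0.55 to -0.13 in PC-like cells, Abca1 in CNT-like cells from -0.96 to -0.3 and Sqle in CNT-like cells from 0.77 to 1.55. The mesangial-like value was 0.24 without DN male 12 weeks replicate 1 or control male 6 weeks replicate 2 and 0.98 without control male 6 weeks replicate 1. The PC-like value was -0.55 and -0.13 without DN male 6 weeks replicate 1 and 2, and the Abca1 value -0.3 and -0.96 without DN male 12 weeks replicate 1 and 2. The Sqle value was 0.77 without control male 6 weeks replicate 1 and 1.55 without control male 6 weeks replicate 2. Cd36 in PC-like cells fell by -2.21 with the block (adjusted p = 0.00186), from 2.75 to 12.0 CPM in control males to 0 to 3.75 in DN males. With DN libraries this near 0, the fitted difference is no measure or bound of the fold. Without the block it was -1.63 without DN male 12 weeks replicate 1 and -5.3 without DN male 12 weeks replicate 2. There Cd36 stood at 1.12 to 3.7% of its PT-like level in control and 0 to 2.92% in DN males, and PT markers at 0.596 to 2.94% and 0.370 to 0.968%, and the part of RNA from PT cells was not tested. In females the block gave Abca1 in PC-like cells, 0.62. Without the block the Abca1 value was 0.55, and it turned to -0.29 without DN female 6 weeks replicate 2.

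Between the ages, 0 of 93 member tests were called by edgeR in control mice (0.000685% of all gene tests, or 0.0151% with the block) and 0 in DN mice (0.0% and 0.0294%), with 6 and 12 tests at an unadjusted p under 0.05 and 1 and 0 calls by DESeq2. For the difference of the genotype effect between the ages it was also 0 (0.0% and 0.0205%; 5 at an unadjusted p under 0.05, and 0 calls by DESeq2). The block added no call. As for the genotypes, the counts at an unadjusted p under 0.05 and by DESeq2 have no share over all gene tests beside them. Among the age effects without the block the lowest adjusted p was that of Sqle in IC-B-like cells of control mice, from 3.84 to 14.0 CPM at 6 weeks to 15.7 to 28.1 at 12 weeks without overlap (1.23 ± 0.22, adjusted p = 0.281).

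Fasn and Srebf1 were called in none of these comparisons, with or without the block. Their genotype differences without the block ranged over the classes from -0.58 to 0.43 (Fasn, 6 weeks), from -0.54 to 0.59 (Fasn, 12 weeks), from -0.55 to 0.68 (Srebf1, 6 weeks) and from -0.55 to 0.32 (Srebf1, 12 weeks). Scd2 had no genotype call either, from -1.0 to 0.30 at 6 weeks and from -2.21 to 0.27 at 12 weeks. In podocyte-like cells its replicate 1 libraries had 169 to 301 CPM and its replicate 2 libraries 383 to 509 over both genotypes.

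Several members differed by replicate number. Scd2 was higher in replicate 2 in 107 of 127 comparisons of a group and class, Abca1 in 98, Srebf1 in 96 and Fasn in 87, and Plin2 was higher in replicate 1 in 84. The 127 comparisons use the same 8 pairs of libraries again in each class, so they are not independent. How many other genes are as uneven was not counted, and the counts are no result about the members. Cd36 in glomerular endothelial-like cells was higher in replicate 1 in 8 of 8 groups, with levels from 16.3 to 232 CPM. The 2 libraries with most Abca1 were the female 6 weeks replicate 2 libraries in 8 of 17 classes, and in PT-like cells these stood at 83.9 (control) and 111 (DN) CPM while the other 14 ranged from 9.89 to 46.6. What the replicate number stands for is not given in the sources used here. In females it coincided with the barcode set, replicate 1 being the smaller set. Glomerular endothelial-like cells numbered 315 to 1043 in replicate 1 libraries and 31 to 281 in replicate 2 libraries. The part of depth and cell number in these differences was not tested.

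**Figure D5:**
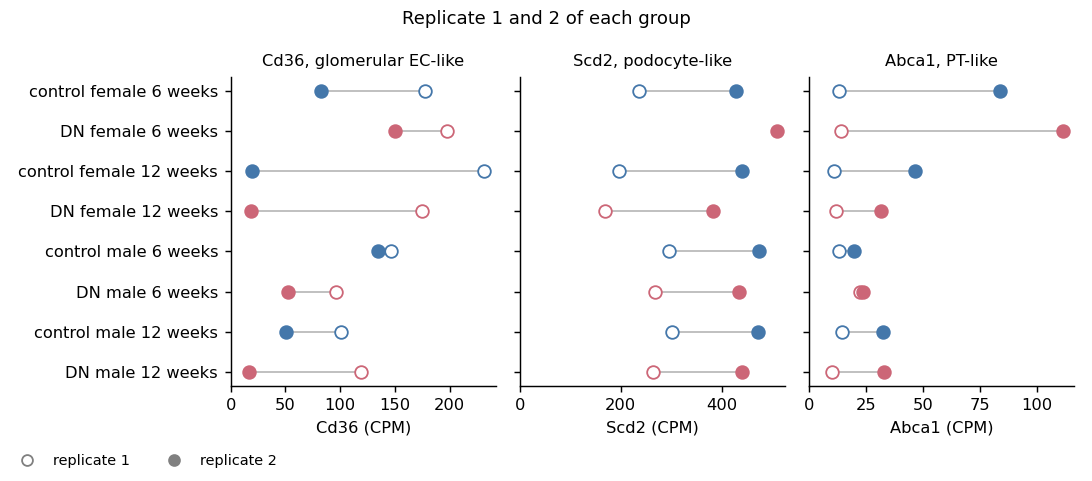
CPM of Cd36 in glomerular endothelial-like, Scd2 in podocyte-like and Abca1 in PT-like cells for replicate 1 (open) and replicate 2 (filled) of each group, on linear axes from 0 (blue control, red DN; 1 podocyte library had under 10 cells). Cd36 is higher in replicate 1 in all 8 groups, and Abca1 is highest in replicate 2 of both female 6 weeks groups, at 83.9 and 111.

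Among other genes of fatty acid uptake, Lpl, the lipase that releases fatty acids from lipoproteins, fell in DN PT-like cells by -1.74 ± 0.27 at 6 weeks (adjusted p = 0.00934) and by -1.73 ± 0.27 at 12 weeks (adjusted p = 0.00873). Control males had 172 to 229 CPM and DN males 39.9 to 82.3, control females 76.1 to 198 and DN females 25.5 to 72.5, with no overlap in either sex. In the Slc7a12 cluster it fell by -5.06 and -4.73, from 82.8 to 1079 CPM in control to 0 to 26.8 in DN libraries. At 6 weeks the PT markers summed to 2918 to 6580 CPM in control and 981 to 2586 in DN libraries of this cluster, and the dLOH markers to 320 to 763 and 1735 to 3665, both without overlap. At 12 weeks both ranges overlapped slightly, at 2171 to 5212 and 1018 to 2975 for PT and 517 to 1149 and 1129 to 2781 for dLOH markers, and their part in the difference was not tested. Without the block the Lpl calls were the only ones of the uptake list of 14 genes at either age (0 of 166 tests rose and 2 fell at 6 weeks, 0 of 162 and 2 at 12 weeks). With the block 7 of 166 rose and 3 fell at 6 weeks, where 1.28% of all gene tests were called, and 4 of 162 rose and 12 fell at 12 weeks, against 3.18%.

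At 12 weeks, without the block, 1 of 199 tests of the droplet and lipolysis genes rose and 1 fell. Mgll, which cleaves monoacylglycerol, rose in mesangial-like cells by 1.42 ± 0.29 (adjusted p = 0.00702), and G0s2, an inhibitor of the lipase ATGL, fell in CNT-like cells by -1.22 ± 0.22 (adjusted p = 0.00854). Of 134 tests of sterol efflux genes 1 rose, Abcg1 in mesangial-like cells (2.00 ± 0.38, adjusted p = 0.00471), and 1 fell, the HDL receptor gene Scarb1 in CNT-like cells (-0.88 ± 0.19, adjusted p = 0.0284). The share over all gene tests was 0.376%. With the block the droplet list had 4 higher and 2 lower of 199 and the efflux list 3 higher and 8 lower of 134, against 3.18%. The mesangial-like and CNT-like cells of these calls are those in which, at 12 weeks, smooth muscle, renin and adipocyte markers (mesangial-like) and stress genes and aLOH markers (CNT-like) differed between the genotypes without overlap, as given for Plin2 and Sqle, and their part was not tested. At 6 weeks no test of these lists was called without the block, and of the sterol synthesis list 1 of 315 fell, Idi1 in the Slc7a12 cluster (-2.78 ± 0.46, adjusted p = 0.00489), where the PT and dLOH markers differed as given for Lpl. The genes of synthesis and desaturation had no genotype call without the block at either age, and with it 2 higher and 1 lower of 166 at 6 weeks, against 1.28% of all gene tests, and 5 higher and 2 lower of 161 at 12 weeks, against 3.18%.

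Between the sexes, without the block, 4 of the 25 sterol genes were higher in males in PT-like cells (Idi1 1.14, Cyp51 1.03, Hmgcs1 0.65 and Hsd17b7 0.57) and none lower, and 6 of 19 oxidation genes were lower in males and none higher, where 9.7% of all genes of the class were called. With the block these were 5 higher and 0 lower sterol genes and 1 higher and 10 lower oxidation genes, against 18.0%. Between the genotypes the oxidation list had no call at 6 weeks without the block (5 higher and 2 lower of 244 with it, against 1.28% of all gene tests) and 2 higher of 238 at 12 weeks (0.376%; 19 higher and 4 lower with the block, 3.18%). In males 8 of 244 were higher in DN (0.446%; 33 higher and 3 lower with the block, 4.23%), and in females none was called (0.066%; 7 higher and 1 lower with the block, 1.49%). Among the calls in males were Cyp4a14 (6.90), Cyp4a10 (2.70) and Acaa2 (1.04), a thiolase gene of mitochondrial beta-oxidation, in PT-like cells. Cyp4a14, a fatty acid omega-hydroxylase gene, was at 0.784 to 1.52 CPM in control males and 67.5 to 189 in DN males, against 243 to 533 and 246 to 786 in control and DN females. For Cyp4a14 and Cyp4a10 the genotype difference was larger in males, by 6.70 ± 0.41 (adjusted p = 9.33e-06) and 2.63 ± 0.35 (adjusted p = 0.00797).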

How the data were processed

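Single-cell 3′ libraries of 16 mice were read as deposited: whole-number UMI counts per gene and barcode, made by the authors with Cell Ranger 3.0.2 and mm10 and not normalized. Barcodes with 200 to 7000 genes and at most 50% mitochondrial counts were clustered (scanpy 1.11.5, 2000 variable genes, 30 components, Harmony over libraries written here, Leiden resolution 1), without the members and listed genes among the variable genes. Clusters were named from at least 3 markers. Cells with markers of 2 lineages (9008) and 972 non-tubule cells with over 20% mitochondrial counts were removed.

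Counts were summed per library and class (at least 10 cells) and tested with edgeR 4.0.16 (TMM, filterByExpr, glmQLFit and glmQLFTest; Benjamini-Hochberg over the genes of a class), with genotype and sex within age as terms, or the 8 groups for contrasts by sex. CPM are these sums. The authors compared single cells, and sums per library were tested here because cells are not replicates. Alternatives were RLE factors, DESeq2 1.42.0, no count filter, the barcode set as a term, the larger set alone, at least 30 cells, no doublet removal, each library left out, and same-numbered libraries (same sex and age for genotype, same sex and genotype for age, the number alone for sex) as a block. The numbers, taken from the labels, paired control and DN libraries. Over 12 classes, 47 of 48 correlations of their deviations from group means exceeded 0.1 (median 0.602, lowest 0.09). In females the number coincides with the barcode set, so their correlations cannot show a pairing apart from that set. In males, all in the larger set, the correlations ranged from 0.09 to 0.702. This pairing is a hint from the data, since the sources do not say what a number marks. Counts were simulated for DN against control at 12 weeks. Changes of 1 log2 unit were called for 43.4% of genes in PT-like cells (11900 genes run) and 38.9% in mesangial-like cells (9370). Changes of 2 were called for 98% and 93.9%. The simulated counts had the same spread between libraries for every gene and no difference by sex, replicate number or barcode set. These shares therefore need not hold for the real libraries.

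Members, lists and markers were chosen with earlier results of these data known. All members were named, and of other lists up to 4 called genes per list and comparison with the lowest adjusted p. Some listed genes and 1 marker are not reported here. For each member the genes most like it were taken among those at 20 CPM or more in a class. Intervals and limits from counts cover counting error only, and UMIs within a library are not replicates.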

Additional observations from a re-analysis of the deposited data

Results flagged for a closer look

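Among 76 sets of 4 libraries (genotype by age, both sexes, so that a sex difference widens the range), 8 held a member value that stood apart by Dixon's test at 95%, and chance alone gives about 1 in 20. The sets cover only part of the members and classes, and the 8 lay in members and classes with a call given above. Sets also share libraries, so 8 of 76 cannot be weighed against that rate. Cd36 gave 4 of them, all in DN males as replicate 2: 129 CPM in PT-like cells at 6 weeks, 413 in the Slc7a12 cluster at 6 weeks, and 1.09 (6 weeks) and 2.71 (12 weeks) in IC-B-like cells. At 6 weeks in PT-like cells the other 3 DN libraries were at 0.621 to 7.77, the highest being the other male. Sqle gave 3: 23.1 CPM in distal convoluted tubule-like cells of control female 6 weeks replicate 1, 11.3 in IC-B-like cells of DN male 6 weeks replicate 1 and 16.7 in PT-like cells of control female 12 weeks replicate 1, the last being lower than the rest. Abca1 in CNT-like cells was at 83.1 CPM in DN female 6 weeks replicate 2.

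The genotype difference of Scd1 in PT-like cells differed between the sexes by 2.84 with the block, with 179 UMIs in control and 44 in DN females against 14 and 30 in males, whose levels were too low for a fall to be detected.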

How the results depend on the processing

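The 34 single results were taken because they were called without the block or with it, and only 10 were called without it. Under all alternatives, 736 of 812 values kept direction and side of the threshold, 15 lost a call, 60 gained one and 1 reversed. For a result not called without the block, keeping its side means staying not called, so 736 is no measure of stable calls. The reversed value, without the block, was Abca1 in PC-like cells of females, -0.29 without DN female 6 weeks replicate 2 (up to 1.11 without other libraries). The replicate block added 24 of these calls and lost none, and the 24 follow from how the results were taken. It changed no call among the members other than those given above.

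The number of member calls moved as follows. At 6 weeks the genotype count of 1 became 6 with no count filter and 0 with no doublet removal, where Plin2 in PT-like cells was at 1.12 (adjusted p = 0.0521). At 12 weeks the count of 0 became 4 by DESeq2, 9 with no count filter, 5 with the barcode set as a term, 2 in the larger set, 8 with the block and 1 with no doublet removal. Sex calls, 8, became 23 with no count filter and 9 with the block. For males 1 became 12 with no count filter, 2 with the barcode term and 12 with the block, and for females 0 became 1 by DESeq2, 2 with no count filter, 2 with the barcode term and 3 with the block. For the sex difference of the genotype effect 0 became 1 by DESeq2, 3 with no count filter and 1 with the block. Age calls in control mice, 0, became 1 by DESeq2, 3 with no count filter and 1 with the barcode term, and in DN mice 6 with no count filter. The cause was not tested. For all contrasts, shares over all gene tests are given above only for the main fit and the block. For the genotype at each age and for sex, calls over all genes under some alternatives follow below, without the number of tests. Member counts under the other alternatives have no such share beside them and are no result about the members. Leaving out each library gave 0 to 1 calls at 6 weeks, 0 to 2 at 12 weeks, 0 to 2 in males, 6 to 12 for sex and 0 in the others.

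Over all genes the 151 genotype calls at 6 weeks became 1923 with the block, 474 by DESeq2, 433 with the barcode term, 325 in the larger set, 1732 with no count filter and 100 with at least 30 cells. The 550 at 12 weeks became 4641, 1249, 1378, 868 and 3074, and the 1849 sex calls 5833, 4404, 3947, 3914 and 7688, in the order of the first 5. Leaving out each library gave 66 to 167 at 6 weeks, 243 to 707 at 12 weeks, 269 to 766 in males, 13 to 110 in females, 9 to 30 for the sex difference and 1103 to 3260 for sex. Depth limits Scd1 and Cd36 outside their leading classes, where 1 UMI can be the whole count of a library.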
